A study of Ovis aries with 6 samples.

Results

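SFN and PRD-SPRRII, grouped here as epidermal genes, were followed on an array of sheep transcripts in the skin of newborn Hu lambs. They were found by matching the RefSeq transcript of each probe to the reference gene table, which gave 1 probe for SFN (A_70_P039451) and 2 for PRD-SPRRII (A_70_P051386 and A_70_P051387), that is 2 of the 500 genes named on the array and 3 of 767 named probes. Dorsal skin was taken at 2 days of age from 3 lambs whose coat had a large wave pattern and 3 whose coat had a small wave pattern. Hu sheep are a Chinese breed known for lambskins with a wave pattern, and per the series' design text the lambs shared a sire, with each large wave and small wave pair from 1 dam. Total RNA of each lamb was labelled with Cy3 and hybridised to its own one-colour array, and the 6 arrays shared 1 slide and 1 scan. The labels give neither the sex of the lambs nor how the wave pattern was scored, and beyond 3 lambs per group no further replicate of either pattern was measured.

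Stratifin, the protein of SFN, is the member of the 14-3-3 family that is typical of stratified epithelia. Proteins of this family bind phosphorylated partners, and stratifin is known from human cells to hold the mitotic kinase CDK1 and its cyclin in the cytoplasm, which stops cells before mitosis. In mice, mutant Sfn gives keratinocytes that proliferate without completing their differentiation, with defects of skin and hair. Small proline-rich proteins, to which PRD-SPRRII belongs by its name, are cross-linked by transglutaminases into the cornified envelope, the protein shell of the dead outer cells of the epidermis.

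The 2 genes lay at opposite ends of the signal range. SFN was among the brightest probes in the skin of every lamb, and PRD-SPRRII was not well above background in any. SFN had no difference between coat patterns that passed the test: its scaled signal was 2.18-fold lower in large wave skin when spots marked as outliers were left out and 1.71-fold lower when they were kept, and its unscaled signal averaged 54986 ± 23453 in large wave lambs and 52509 ± 4985 in small wave lambs (SD, n = 3 each).

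The signal of SFN was 81227, 36071 and 47660 in large wave lambs 1 to 3, against 52746, 57371 and 47410 in small wave lambs 1 to 3. These are processed signals, intensities from which the scanner software had removed the background. Local background was between 31 and 38.5 units, and the spot was well above background on all 6 arrays. No array was saturated at this spot, which on each array was read from the low-gain part of the scan. The software's own error estimate for the spot was 10% of the signal on each array, whether marked as an outlier or not. Being the same on each array, it is not a measured spread of SFN.

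By rank the SFN probe was 17th, 39th and 24th in large wave lambs 1 to 3 and 22nd, 14th and 15th in small wave lambs 1 to 3, among 15008 probes. Taking the median over the arrays, this is a rank of 19.5, and it was 15.5 over the 4 arrays left after outlier marks and 21.5 when spots were ranked by their median signal without background subtraction. Among the 500 named genes, each at its brightest probe, SFN stood at place 3, 6 and 4 in large wave lambs 1 to 3 and at place 3, 2 and 3 in small wave lambs 1 to 3. The ranks of the groups overlapped. Probes differ in how strongly they bind, so a rank places a signal on its array and does not measure the amount of mRNA. Whether the single SFN probe also binds transcripts of related 14-3-3 genes was not tested, and probes without a RefSeq match could not be assigned to either gene.

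Both PRD-SPRRII probes gave signals at the floor of the arrays. A_70_P051386 read 2.15, 2.18 and 2.56 in large wave lambs 1 to 3, against 1.605, 3.94 and 1.36 in small wave lambs 1 to 3. A_70_P051387 read 1.94, 4.96 and 1.4997 in large wave lambs 1 to 3, against 2.55, 1.81 and 2.77 in small wave lambs 1 to 3. On no array was either spot well above background, and each lay under the lowest signal called well above background on the same array, which was between 4.70 and 9.60 on the large wave arrays and between 4.595 and 9.004 on the small wave arrays. On large wave array 3 and small wave array 3, where it was lowest, the probes reached 2.56 and 2.77 at most.

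Before background subtraction the PRD-SPRRII spots had median signals of 39.5 to 46 units on the large wave arrays and 36 to 44 on the small wave arrays, and the median of the 77 negative control spots was 40 to 43 and 38 to 40 units on them. The spot of A_70_P051387 on large wave array 2 was the only one of these spots that 0 of the 77 negative controls reached, and it was also marked positive and significant by the software. A positive and significant mark without the well-above-background mark was also set for A_70_P051387 in small wave lamb 1 and for A_70_P051386 in small wave lamb 2. The probes did not rise on the same arrays: large wave lamb 2 had the highest value of one, and small wave lamb 2 the highest of the other. Neither spot was marked as an outlier on any array, so leaving out marked spots changed none of these values.

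No wave difference is given for PRD-SPRRII, because neither probe was well above background on any array of either group. The probes ranked between 10677 and 14962 of 15008 on the large wave arrays and between 10886 and 14986 on the small wave arrays. Among the named genes, 106 of 500 (21.2%) had no probe well above background on any array, and over all probes the share was 24.8%, so PRD-SPRRII is 1 of many genes with such values. The values do not say that the skin lacked small proline-rich proteins, since these probes were designed for a single gene of the SPRR family. Whether they bind transcripts of other SPRR genes was not tested, and the probe sequences were not used here.

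**Figure D1:**
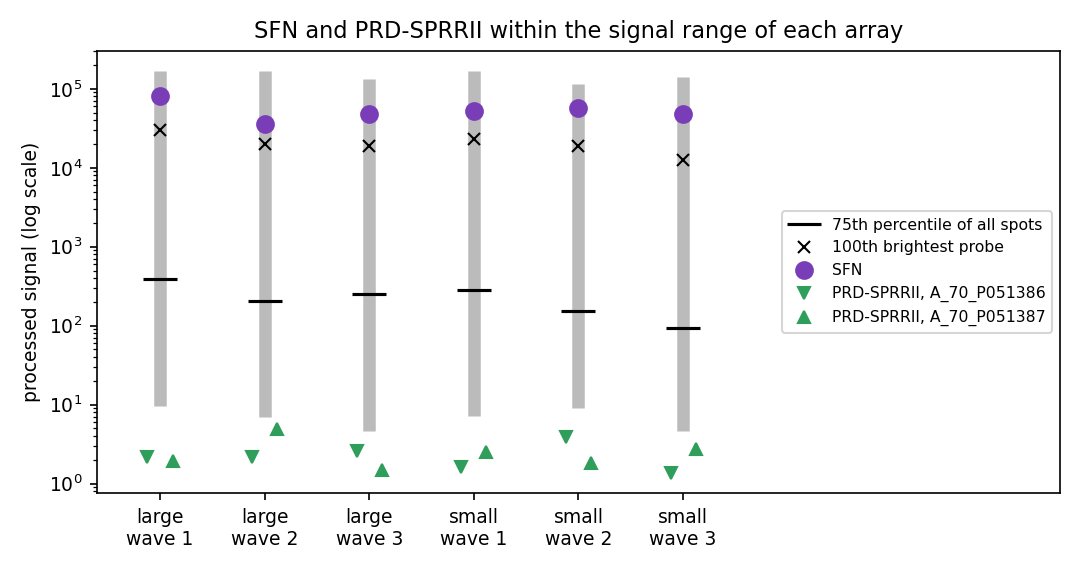
Processed signal of SFN (circles) and of the PRD-SPRRII probes (triangles) on each of the 6 arrays, on a log axis; the grey bar runs from the lowest signal called well above background to the brightest probe, the dash is the 75th percentile of all spots and the cross the 100th brightest probe. SFN lies above the 100th brightest probe on all 6 arrays, and both PRD-SPRRII probes lie below the grey bar.

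For the comparison of coat patterns each signal was divided by the 75th percentile of all spots on its array and put on the log2 scale. On this scale SFN was 7.70, 7.46 and 7.58 in large wave lambs 1 to 3, against 7.53, 8.56 and 8.97 in small wave lambs 1 to 3. Small wave lambs 2 and 3 stood above the rest, while small wave lamb 1 lay inside the range of the large wave lambs. The spots of large wave lamb 2 and small wave lamb 1 had been marked by the software as outliers for uneven pixels, so that without them 2 arrays per group remained and the groups no longer overlapped.

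With the marked spots left out, the mean of SFN was 7.64 in large wave lambs and 8.76 in small wave lambs. The difference was -1.12 ± 0.45 (SE, n = 2 arrays per group), and its 95% confidence interval ran from -2.25 to -0.0039. This did not pass in limma with Benjamini-Hochberg adjustment over the 10047 probes tested (adjusted p = 0.777; unadjusted p = 0.049). With the marked spots kept, the mean was 7.58 ± 0.12 in large wave lambs and 8.35 ± 0.74 in small wave lambs (SD, n = 3 arrays per group). That difference, -0.77 ± 0.46 (SE), had a 95% confidence interval from -1.85 to 0.30 and an adjusted p of 0.769 in limma. In bulk skin, fewer keratinocytes and less SFN mRNA per keratinocyte cannot be told apart.

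Over all probes, limma called 0 of 10047 (0.0%) at an adjusted p under 0.05, and 384 (3.82%) had an unadjusted p under 0.05. SFN was 1 of the probes that were lower in large wave skin at that unadjusted level, which were 2.28% of those tested. The large wave arrays lay wholly below the small wave arrays in 6.18% of the probes tested, as SFN did with marked spots left out. Among the 146 probes that, like SFN there, had 2 arrays left in each group, this was so in 33 (22.6%). With marked spots kept the share was 5.19%, and SFN was not among them.

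**Figure D2:**
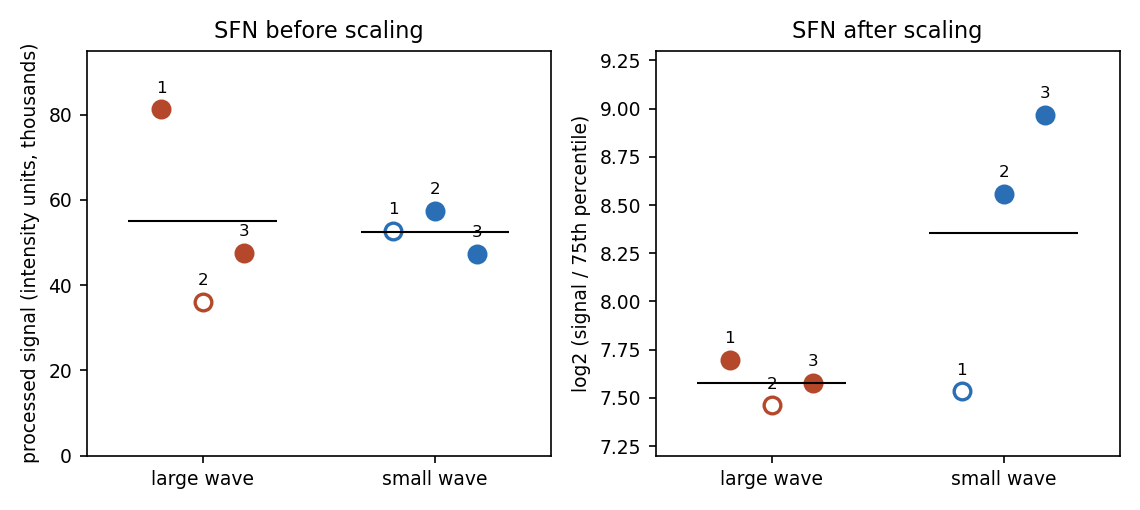
SFN in each lamb before scaling (left, processed signal in units of 1000) and after division by the 75th percentile of the array (right, log2); open points are spots marked as outliers, numbers are the replicate and lines the group means over all 3 lambs. Before scaling the groups overlap with means of 54986 for large wave lambs and 52509 for small wave lambs; after scaling small wave lambs 2 and 3 stand above the other 4.

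Same-numbered lambs were compared as well. Large wave lamb 1 was higher than small wave lamb 1 by 0.16 on the scaled log2 scale. In the other pairs the large wave lamb was lower, with differences of -1.10 in pair 2 and -1.39 in pair 3, and only in pair 3 were both spots free of outlier marks. With all spots kept and the replicate number as a block, the difference of -0.77 ± 0.47 (SE) did not pass (adjusted p = 0.626 in limma). Where every pair is complete, such a block cannot change the difference, only its error. The slide held 2 rows of arrays with lambs of both patterns in each: within row 1, which held both marked spots, the difference was -0.013 and within row 2 it was -1.07, from 3 arrays each, and with the row as a block it was -0.54 ± 0.46.

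The scaled difference moved with the brightness of the arrays. The 75th percentile was 392, 205 and 249 units in large wave lambs 1 to 3, against 285, 152 and 94.7 in small wave lambs 1 to 3, so that small wave lambs 2 and 3, the highest in scaled SFN, had the dimmest arrays. Unscaled, SFN had a log2 signal of 15.66 ± 0.60 in large wave lambs and 15.68 ± 0.14 in small wave lambs (SD, n = 3), a difference of -0.013 ± 0.41 (SE, adjusted p = 0.987 in limma), while the median unscaled difference of all probes was 0.74. With marked spots kept, the SFN mean of large wave lambs was thus lower relative to the 75th percentile of the arrays, and nearly equal in the intensity itself. Neither difference passed. With array brightness as a covariate the difference was -0.31 ± 0.41 with marked spots kept and -0.81 ± 0.83 with them left out (adjusted p = 0.999 in limma for each). With marked spots left out, large wave arrays at 392 and 249 units were compared with small wave arrays at 152 and 94.7. In that comparison array brightness cannot be told apart from the wave pattern.

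Other very bright probes shared this shift. The signal of the 100th brightest probe was 30139, 19758 and 19026 in large wave lambs 1 to 3 and 23007, 18789 and 12379 in small wave lambs 1 to 3, which is 6.27, 6.59 and 6.25 above the 75th percentile on the log2 scale in large wave lambs and 6.34, 6.95 and 7.03 in small wave lambs. With marked spots kept, 84 of the 100 brightest probes were lower in large wave than in small wave skin, with a median difference of -0.38, against 51.4% and a median of -0.02 over all 10048 probes. With marked spots left out, 85 of the brightest 100 were lower before quantile normalization and 50 after it. Quantile normalization gives every array the same signal distribution, so a near-even split among the brightest probes is largely fixed by it. The part of the shift of bright probes in the SFN difference was not tested. After quantile normalization SFN itself differed by -0.23 ± 0.32 with marked spots left out and by -0.29 ± 0.29 with them kept. In the authors' deposited table SFN differed by -0.26 ± 0.29 (SE of limma, n = 3 per group, adjusted p = 0.834).

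**Figure D3:**
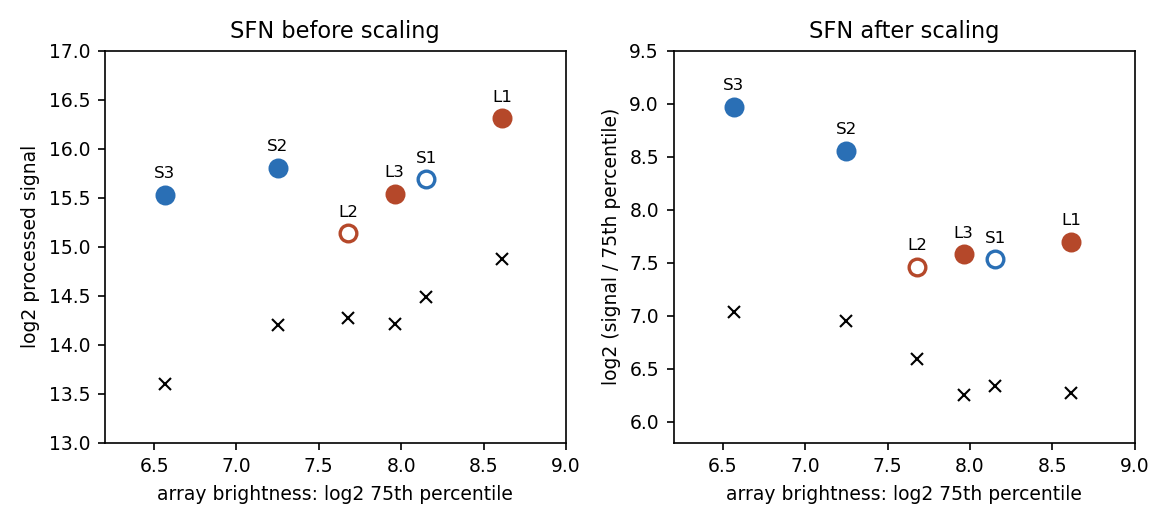
SFN against the brightness of each array (log2 75th percentile of the signal), before scaling on the left and after scaling on the right; red marks large wave (L) and blue small wave lambs (S), open points are marked spots and crosses the 100th brightest probe. After scaling, the 2 dimmest arrays, small wave lambs 3 and 2, have the highest SFN values and the highest crosses.

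A further step of the scanner software acted on the SFN spot. Between the background-subtracted and the processed signal the software multiplied SFN by 1.02, 1.03 and 0.850 in large wave lambs 1 to 3 and by 1.11, 1.12 and 1.37 in small wave lambs 1 to 3. Bright spots within 5 rows and 5 columns of SFN on the same arrays had nearly the same factors, with medians of 1.02, 1.02 and 0.855 in large wave and 1.12, 1.11 and 1.33 in small wave lambs. The factor therefore went with the place on the array, and it was lower in every large wave lamb than in every small wave lamb.

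On the log2 scale the mean factor differed by -0.31 between the groups with all spots kept and by -0.41 with marked spots left out. Computed from the background-subtracted signal instead, scaled to its own 75th percentile, SFN differed by -0.48 ± 0.42 with marked spots kept (adjusted p = 0.782) and by -0.76 ± 0.42 with them left out (adjusted p = 0.776). With that signal and quantile normalization the difference was 0.032 ± 0.28 with marked spots kept and 0.15 ± 0.28 with them left out. The direction of the SFN difference thus depended on the signal and scaling used. Whether the correction removed a real unevenness of the hybridisation was not tested.

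**Figure D4:**
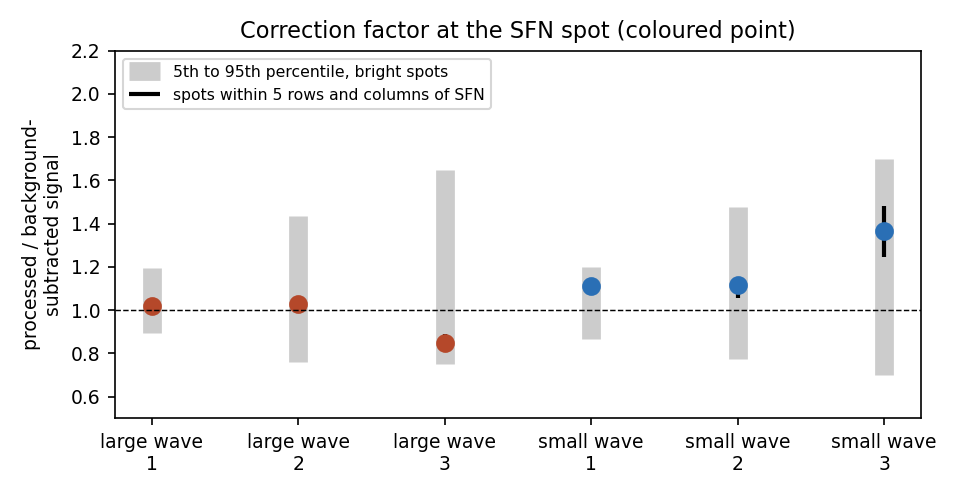
Factor between background-subtracted and processed signal at the SFN spot on each array (coloured points), in spots above 1000 units within 5 rows and columns of it (black line, lowest to highest) and in all spots above 1000 units (grey bar, 5th to 95th percentile). The 3 large wave points lie between 0.850 and 1.03, and the 3 small wave points between 1.11 and 1.37.

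Single small wave lambs had much weight in the SFN value. With marked spots kept, the difference was -0.47 without small wave lamb 3, -0.67 without small wave lamb 2 and -1.18 without small wave lamb 1, and leaving out a large wave lamb gave -0.83 to -0.72. None of these passed in limma, with adjusted p from 0.236 to 0.997. Without small wave lamb 1 each remaining large wave array was brighter than each remaining small wave array. In that value the brightness of the arrays cannot be told apart from the wave pattern. The same held with marked spots left out, where large wave lambs 1 and 3 had brighter arrays than small wave lambs 2 and 3.

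**Figure D5:**
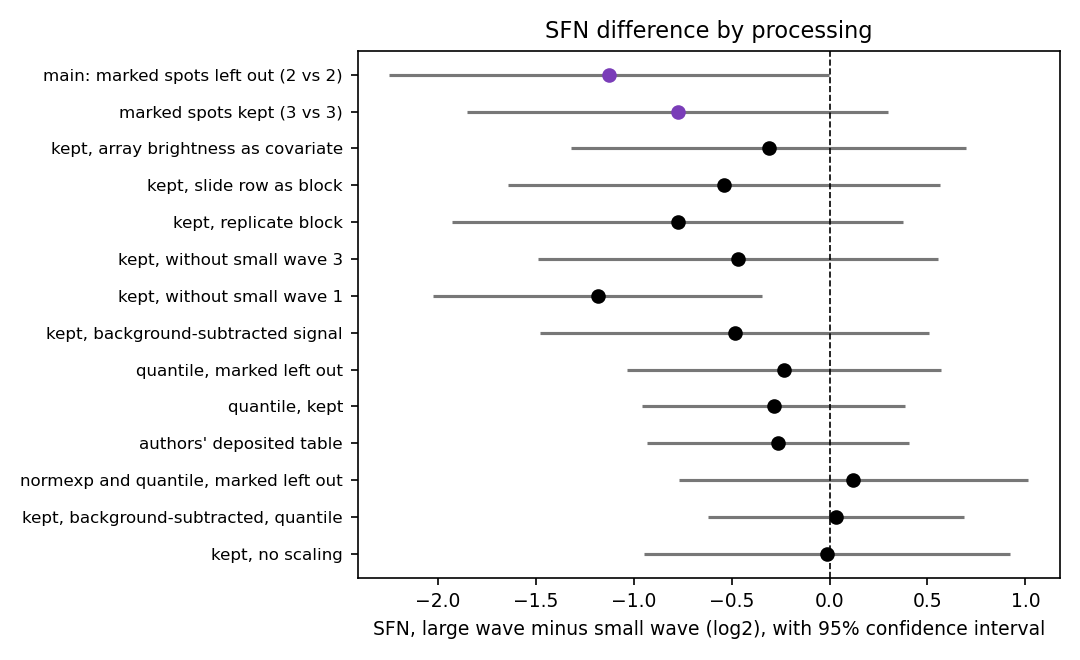
Difference of SFN, large wave minus small wave on the log2 scale, with its 95% confidence interval, by way of processing; the top row leaves out the marked spots and uses 2 arrays per group. Points lie between -1.18 and 0.12, and the intervals of the top row and of the row without small wave lamb 1 exclude 0; none of those drawn passes after adjustment over all probes.

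Of 19 genes listed as partners of stratifin or for cell cycle arrest, 4 were named on the array, all well above background on all 6 arrays. With 3 higher and 1 lower in large wave skin and a median difference of 0.48, against -0.15 over the 346 named genes tested, none passed in limma (0 of 4). CDK1, the mitotic kinase bound by stratifin, had scaled log2 signals of -0.51, -0.25 and -0.34 in large wave lambs 1 to 3, against -0.82, -0.92 and -0.68 in small wave lambs 1 to 3. The groups did not overlap, and the difference was 0.44 ± 0.30 (adjusted p = 0.777). After normexp correction and quantile normalization it was 0.13. CDK2, the kinase of the entry into DNA replication, likewise had each large wave lamb above each small wave lamb. Its difference was 0.53 ± 0.34 (adjusted p = 0.777), and 0.26 after normexp correction and quantile normalization. Wholly higher values in large wave skin were found in 4.99% of the probes tested.

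CDK4, a kinase of the G1 phase, differed by 0.59 ± 0.31, with 1 small wave lamb above the lowest large wave lamb. Its difference was 0.51 after normexp correction and quantile normalization. None of the other 6 genes of the 14-3-3 family was named on the array, so SFN could not be compared with its relatives.

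Of 73 genes listed for keratinocytes and the cornified envelope, FABP5 and GJB2 were named on the array, and both were above background on all 6 arrays. Neither passed in limma, with 1 higher and 1 lower. FABP5, a fatty acid binding protein of keratinocytes, had 6.03, 5.58 and 5.797 in large wave lambs 1 to 3, against 6.22 and 6.15 in small wave lambs 1 and 2, a difference of -0.38 ± 0.34 (adjusted p = 0.783). The spot of small wave lamb 3 was marked and read 3.92, and with it the difference was 0.37. The treatment of marked spots thus turned the sign of FABP5 on this scale, while SFN kept its sign on it and changed in size. On other scales SFN turned sign as well. Without scaling it was 0.25 with marked spots left out and -0.013 with them kept, and after normexp correction and quantile normalization 0.12 and -0.040.

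GJB2 encodes a connexin, a gap junction protein of epithelia including the epidermis. Its brightest probe had 3.33, 3.04 and 2.79 in large wave lambs 1 to 3, against 2.93, 2.54 and 2.84 in small wave lambs 1 to 3, a difference of 0.28 ± 0.28 (adjusted p = 0.789). Its other 3 probes had the opposite sign, with differences from -0.68 to -0.47. The value of the brightest probe was 0.15 without large wave lamb 1 and 0.41 without large wave lamb 3. It was 0.52 after quantile normalization and 0.59 after normexp correction and quantile normalization. The probes of GJB2 disagree on the direction.

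None of 9 defining keratinocyte markers, such as the basal and suprabasal keratins, was named on the array, so the share of epidermis in each skin sample could not be read from markers. Genes of other parts of the skin were present: 5 of 12 hair follicle markers were tested, with 2 higher and 3 lower in large wave skin, 3 of 8 adipocyte markers with 0 higher and 3 lower, and 1 of 11 fibroblast markers, the matrix proteoglycan gene DCN, with a difference of 0.22 ± 0.46 over 2 large wave and 3 small wave arrays. The DCN value was 0.035 with marked spots kept, -0.17 without small wave lamb 1 and 0.49 without small wave lamb 2. It was 0.65 after quantile normalization and 0.91 after normexp correction and quantile normalization. The other DCN probe differed by 0.10 with marked spots left out. With them kept it differed by 1.83, and there the marked spot of small wave lamb 3 read -0.08. Of 3 muscle markers 2 were tested, with 1 higher and 1 lower, and the endothelial marker AQP1 was lower in large wave skin with the value given among the genes most like SFN. None of these passed in limma. Over the 346 named genes tested, 139 were higher and 207 lower in large wave skin. The counts use the brightest tested probe of each gene, and another probe of some of these genes had the opposite sign. Some values of hair follicle markers rest on 1 array in a group. The part of these markers in the SFN difference was not tested.

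The named genes whose pattern over the 6 arrays was most like that of SFN, by Pearson correlation of scaled log2 signals with marked spots kept, were EDN1 (r = 0.977), ANXA2 (r = 0.953), SPA17 (r = 0.953), AQP1 (r = 0.951) and IGF1 (r = 0.948), out of 345 genes. EDN1 encodes endothelin-1, ANXA2 the calcium-dependent membrane protein annexin A2, AQP1 a water channel and IGF1 a growth factor. In all 5, small wave lamb 3 had the highest value and small wave lamb 2 the next, as in SFN, and these were the 2 dimmest arrays. The 5 genes were picked by this correlation, so sharing the top arrays with SFN largely follows from the choice. Over the 345 genes the correlation with SFN ran from -0.976 to 0.977 with a median of 0.21, and 53 genes were above 0.8. The part of array brightness in these correlations was not tested.

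The size of the pattern differed. ANXA2 spanned 5.16 to 5.51 over the 6 arrays, with a wave difference of -0.25 ± 0.28 (adjusted p = 0.801). EDN1 spanned -2.92 to -0.19, with a wave difference of -1.29 ± 0.60 (adjusted p = 0.777). AQP1 had the widest span of the 5, -3.63 to 0.43, and a wave difference of -2.29 ± 0.70 (adjusted p = 0.777). After normexp correction and quantile normalization it was -0.94. The other AQP1 probe, also well above background on all 6 arrays, differed by -1.62, and its groups overlapped. The scaled SFN signal spanned 7.46 to 8.97. None of the 5 genes passed in limma.

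In the reference assembly ARS-UI_Ramb_v3.0 PRD-SPRRII lies in a row of genes of the cornified envelope, with IVL (involucrin), SPRR4 and LORICRIN among the 12 coding genes to either side. LORICRIN encodes the main protein of that envelope. SFN has KDF1, a keratinocyte differentiation factor, 5 coding genes away and GPN2 and ZDHHC18 next to it. Of the 24 coding neighbours, 0 were named on the array for SFN and 1, a locus without a gene symbol, for PRD-SPRRII.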

How the data were processed

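Scanner files of 6 one-colour arrays were deposited, with an intensity for each spot. Per the file headers they come from Agilent Feature Extraction 10.7.3.1, and the submitters' processing notes name 10.7. The processed signal is background-subtracted and not scaled between arrays. Each spot's 0 or 1 marks, another kind of column, were also deposited. The authors' deposited table holds log2 values with the median of 4.95 in each column, and how it was normalized is not stated in the sources used here.

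The log2 processed signal minus each array's 75th percentile was averaged over spots of a probe, without controls and without spots marked as outliers. Probes well above background on at least 3 arrays entered limma 3.58.1 under R 4.3.3, with differences taken as large wave minus small wave (variance trend, Benjamini-Hochberg, threshold 0.05), and the model was tested on simulated data. The 75th percentile ranged from 94.7 to 391.5 and the share of spots well above background from 51.4 to 70.7%. The number of arrays limits the precision: a 95% interval reached a median of 1.06 on the log2 scale to either side of its difference. The p-values of the main fit rest on the spread between these lambs without regard to pairs, moderated by the variance trend over all probes tested. For SFN with marked spots left out they rest on 2 lambs per group.

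Names came from RefSeq accessions (767 of 786 probes matched). Genes were represented by their brightest tested probe. Deviations of same-numbered lambs correlated at 0.30, 0.18 and 0.20, each above 0.1. The numbers also match slide columns, so these correlations cannot tell lambs of 1 dam from a shared place on the slide. No label says that the replicate number marks the pairs, so the main fit has no block and the replicate block is an alternative. The named genes are the members, the 5 genes most correlated with SFN and measured genes of the lists. The members and lists were chosen with earlier results of these data known, and 1 list from the names on the array. Values of 2 listed genes are not reported here, though list counts include them. No sequences or coordinates are given. Alternatives concern marked spots, background, normalization, filter, blocks, array brightness and each array left out.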

Additional observations from a re-analysis of the deposited data

How the results depend on the processing

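Over 35 alternatives the SFN difference was negative in 31 and positive in 4, from -1.39 to 0.25, and it passed in 0 (adjusted p 0.185 to 0.999 in limma). It was positive after normexp correction and quantile normalization (0.12), with the background-subtracted signal and quantile normalization (0.15, and 0.032 with marked spots kept) and without scaling (0.25); the cause was not tested. With marked spots left out, the replicate block gave -1.39, which rests on pair 3 alone and has no residual degrees of freedom, and leaving out each array gave -1.33 to -0.92. The block changed no call. Several of the 35 alternatives could not move the estimate. The filter and the variance trend do not enter it, and large wave lamb 2 and small wave lamb 1 were already left out as marked. Each of these gave -1.12 again, and with marked spots kept the replicate block repeated -0.77. The counts of signs thus include copies of the same value. Normexp correction and quantile normalization with marked spots kept gave -0.040. In limma, 0 probes passed after adjustment under each of 18 other settings, with 142 to 2173 probes at an unadjusted p under 0.05. Alternatives that keep marked spots and change a further choice, those without scaling and those on the background-subtracted signal were chosen after seeing the data. For PRD-SPRRII no difference is given under any setting, since neither probe was well above background on any array.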

Other observations

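Other epithelial genes, picked from the names on the array, had 3 of 4 tested members higher and 1 lower in large wave skin, with a median difference of 0.34, and none passed in limma. TFAP2A, a transcription factor of epidermal genes, differed by -0.59 ± 0.43 over 3 large wave and 2 small wave arrays (adjusted p = 0.777) and by -1.08 with the marked spot of small wave lamb 3 kept; without small wave lamb 2 it was -0.05. CLDN4, a tight junction claudin, differed by 0.60 ± 0.67 (adjusted p = 0.806), and without small wave lamb 3 by -0.09. SLPI, a secreted protease inhibitor of epithelia, was well above background on 1 large wave and 1 small wave array and was not tested.

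PI3, the protease inhibitor elafin, which in humans is cross-linked into the cornified envelope, had 1 lamb far from the rest. Its brighter probe had 2.36, 1.55 and 0.76 in large wave lambs 1 to 3, against -1.86, 2.29 and 1.41 in small wave lambs 1 to 3. The other probe gave 2.30, 0.68 and 0.45 in large wave and -1.98, 1.67 and 1.08 in small wave lambs, so both were lowest in small wave lamb 1. The difference was 0.94 ± 0.997 (adjusted p = 0.801), and without small wave lamb 1 it was -0.29. SFN in the same lamb, at 7.53, lay in the range of the large wave lambs.

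LOC443313, the locus 2 coding genes from PRD-SPRRII, had 1 of its 2 probes well above background on 1 array only, with a scaled log2 signal of 0.91 in large wave lamb 2. On the other arrays this probe had values from -7.61 to -5.50 in large wave and from -7.62 to -5.13 in small wave lambs.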
